A study of Mus musculus with 12 samples.

Results

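The genes examined were 7 carbonic anhydrases, CA12, CA9, CA2, CA5B, CA8, CA11 and CA13, out of 58735 genes measured by RNA-Seq in 12 libraries of U2OS cells, a human osteosarcoma line. They were taken from the 23 genes whose description begins with carbonic anhydrase, of which 15 are protein coding and 8 are pseudogenes. The set was chosen by the FPKM of CA12, which was far lower with both siRNAs than in blank cells, so the values of CA12 are given below as a description, without a test. The libraries formed 4 groups of 3 replicates: blank cells, cells with the siRNA siSRSF1-2, cells with the siRNA siSRSF1-3, both against the splicing factor SRSF1, and cells made to overexpress LINC01134, a long non-coding RNA (OE-LINC01134). All groups shared the U2OS background, and no library of cells given a control siRNA or an empty vector was used here, so the effect of an siRNA or of LINC01134 and that of its delivery cannot be told apart. The labels name the organism as mouse and the paper's methods place the transfections in HOS cells, another osteosarcoma line, whereas the gene identifiers in the files are human and the labels give U2OS.

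Carbonic anhydrases are zinc enzymes that interconvert carbon dioxide and bicarbonate with release of a proton, and so take part in the control of pH. CA12 and CA9 are anchored in the plasma membrane with the active site outside the cell, and both are known as genes induced by low oxygen. CA2 and CA13 are cytosolic enzymes, CA5B is mitochondrial, and CA8 and CA11 are related proteins that lack the catalytic activity. In bone, CA2 is best known from osteoclasts, the cells that resorb bone by secreting acid.

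The unit was FPKM, fragments per kilobase scaled to the size of the library, and the libraries held 26237763 to 32954539 reads on genes. SRSF1 measured 35.9, 19.8 and 20.5 FPKM in the blank libraries, 7.09, 7.46 and 7.41 with siSRSF1-2, 3.33, 6.81 and 7.90 with siSRSF1-3, and 31.8, 29.6 and 30.3 with OE-LINC01134. LINC01134 measured between 878 and 1279 FPKM in the overexpressing libraries and between 0.497 and 1.11 elsewhere. Several libraries stood apart from their own group: the standard deviation of the log2 ratio over genes was 0.625 and 0.630 between blank replicate 1 and the other blank libraries, against 0.214 between those and 0.464 between blank replicate 1 and OE-LINC01134 replicate 2. OE-LINC01134 replicate 2 differed from its own group by 0.587 and 0.592, against 0.205 between the other two, and siSRSF1-3 replicate 3 was nearer to the siSRSF1-2 libraries (0.380 to 0.410) than to its own replicates (0.657 and 1.05). Of the marker genes, VIM, a mesenchymal intermediate filament, was between 68.7 and 248 FPKM and COL1A1 between 14.1 and 39.7 FPKM, while COL1A2, the partner chain of type I collagen, was at most 0.0131 FPKM. The 6 tested markers of this mesenchymal list had a median log2 difference from blank of -0.78, -0.50 and -0.70 with siSRSF1-2, siSRSF1-3 and OE-LINC01134, and VIM fell by 1.39 with siSRSF1-2 (adjusted p = 0.00148 in limma) and ALPL by 1.91 with OE-LINC01134 (adjusted p = 0.0402 in limma). VIM was above the blank libraries in OE-LINC01134 replicate 2 (248 FPKM) and low in replicates 1 and 3 (68.7 and 69.4 FPKM). The 4 leukocyte markers summed to at most 0.212 FPKM and the 4 epithelial markers to at most 3.24 FPKM. Of the erythroid markers, HBB ranged from 5.93 to 50.9 FPKM and had a log2 difference from blank of 0.92 with siSRSF1-2 (adjusted p = 0.00813 in limma) and 1.49 with siSRSF1-3 (adjusted p = 0.144 in limma), neither of which passed both the p and the fold threshold. The part of these markers in the results below was not tested.

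CA12 was higher in every blank library than in any library of the other groups, by the least against OE-LINC01134 replicate 2, and the 2 siRNA groups lay at a small part of the blank level. The gene (ENSG00000074410) lies at chr15:63321378-63382161 on the minus strand in the coordinates of the files, for which no human build is given in the sources used here. The blank libraries measured 1.74, 5.05 and 5.17 FPKM (352, 1049 and 1236 reads), a mean of 3.98 ± 1.95 (SD, n = 3). Blank replicate 1 was thus the lowest of them, at 43.6% of the blank mean.

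With siSRSF1-2, CA12 measured 0.219, 0.199 and 0.189 FPKM (46, 43 and 49 reads), a mean of 0.202 ± 0.0153 (SD, n = 3). With siSRSF1-3 it measured 0.0837, 0.0861 and 0.197 FPKM (12, 16 and 45 reads), a mean of 0.122 ± 0.0649 (SD, n = 3). All 6 siRNA libraries were below the lowest blank library, and they held between 4.81% and 12.6% of the level in blank replicate 1. The 2 siRNA groups overlapped, since siSRSF1-3 replicate 3 lay within the range of siSRSF1-2.

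CA12 was not uniform among the cells overexpressing LINC01134. Their libraries measured 0.0849, 1.35 and 0.0813 FPKM (18, 270 and 17 reads), a mean of 0.506 ± 0.732 (SD, n = 3). Replicates 1 and 3, with SRSF1 at 31.8 and 30.3 FPKM, were as low as the lowest siSRSF1-3 libraries, and replicate 2, the library most like blank replicate 1, was at 77.7% of that library's CA12. All 3 were below every blank library.

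The log2 fold change of CA12 on the scale of FPKM + 0.1 was -3.61 (SE 0.426) with siSRSF1-2, -4.09 (SE 0.497) with siSRSF1-3 and -3.33 (SE 0.874) with OE-LINC01134, each against the same 3 blank libraries. Between the siRNAs it was -0.48 (SE 0.479), siSRSF1-3 minus siSRSF1-2. Without blank replicate 1 the 3 differences from blank were -4.11, -4.59 and -3.83, and with blank replicate 1 as the sole blank library they were -2.61, -3.09 and -2.33. Leaving out OE-LINC01134 replicate 2 gave -4.33 for the overexpressing cells. Since the added 0.1 FPKM is close to the level in the low libraries, these differences understate the ratio of the FPKM values.

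**Figure D1:**
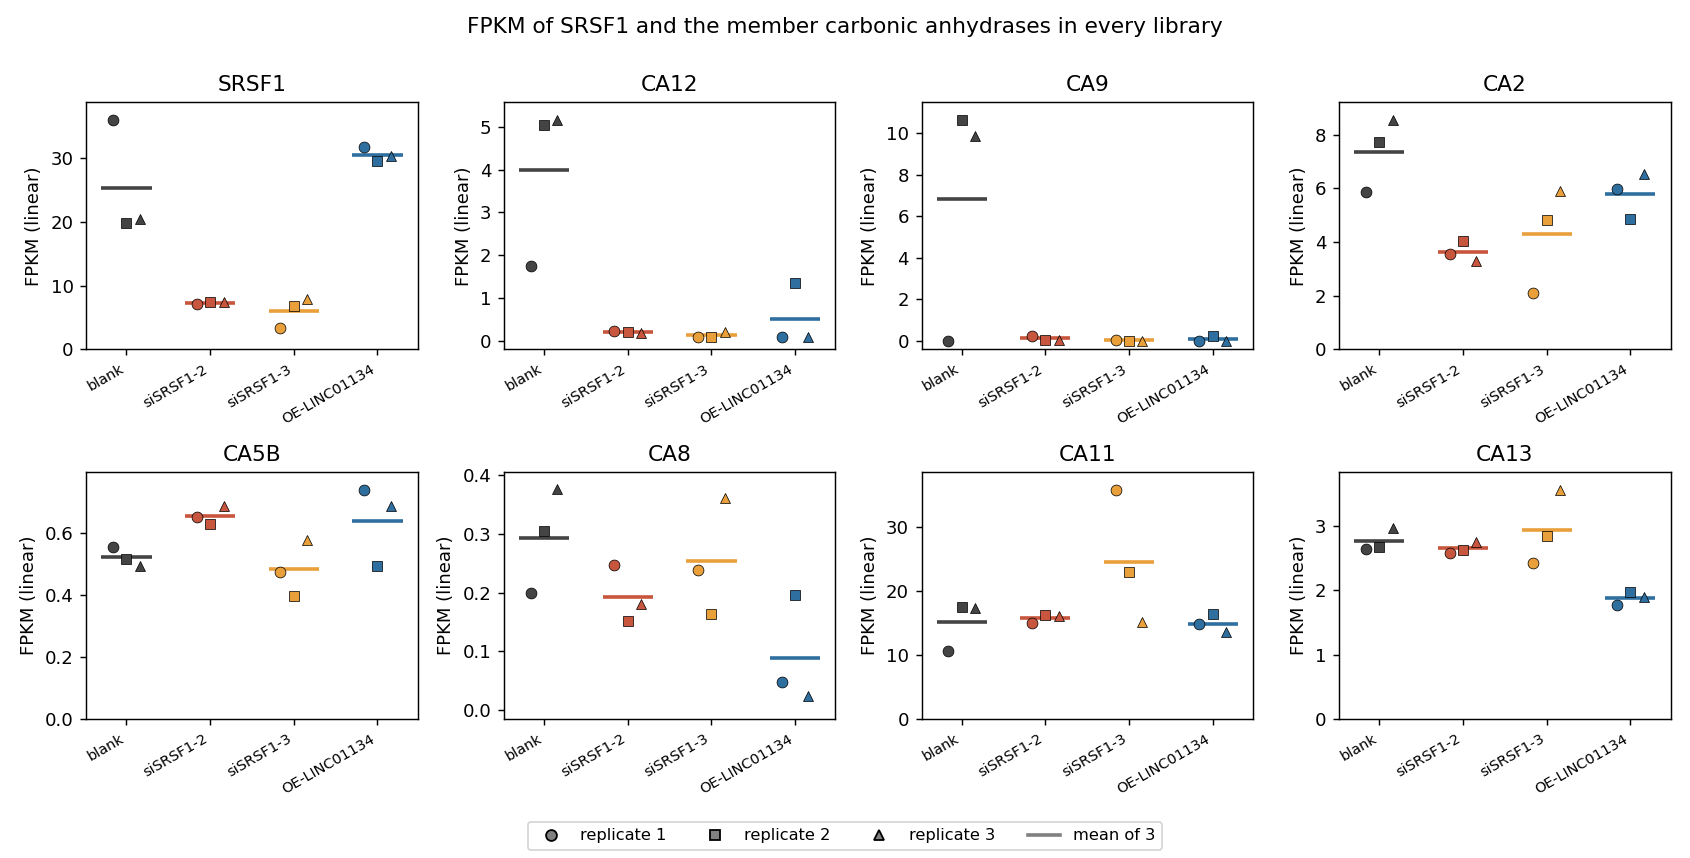
FPKM (linear axes, one scale per gene) of SRSF1 and the 7 carbonic anhydrases in the 4 groups, with one symbol per replicate and a horizontal line at the mean of 3. The CA12 points of the blank libraries sit between 1.74 and 5.17 FPKM and all others at or below 1.35 FPKM, while CA9 is at 0 in blank replicate 1 and at 10.6 and 9.85 FPKM in the other blank libraries.

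CA9 (ENSG00000107159, chr9:35673856-35681159, plus strand) was seen at a high level in only 2 of the 12 libraries, blank replicates 2 and 3. The blank libraries measured 0, 10.6 and 9.85 FPKM, from 0, 505 and 538 reads. Blank replicate 1 held no read, where 3 reads would have been 0.0649 FPKM, so a level up to that could not be seen at this depth. This limit covers counting error only.

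With siSRSF1-2, CA9 measured 0.229, 0.0405 and 0.0507 FPKM, from 11, 2 and 3 reads. With siSRSF1-3 a single read was found in replicate 1 and 0 reads in replicates 2 and 3. The overexpressing libraries held 0, 10 and 0 reads, so the only one with CA9 reads was again replicate 2. The ranges of blank cells and of each other group overlapped because of blank replicate 1.

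The log2 fold changes of CA9 against blank were -3.53 (SE 1.84, adjusted p = 0.205) with siSRSF1-2, -4.33 (SE 1.74, adjusted p = 0.161) with siSRSF1-3 and -3.90 (SE 1.79, adjusted p = 0.221) with OE-LINC01134, in limma fits over all tested genes. None passed the threshold, which asked for an adjusted p under 0.05 together with a log2 difference of more than 1 in either direction. The values turned on blank replicate 1: without blank replicate 1 they were -5.76, -6.56 and -6.13, and with it as the sole blank library they were 0.93, 0.13 and 0.56. CA9 met the minimum mean of 0.5 FPKM for a test only through blank replicates 2 and 3. A fit against blank, above all without replicate 1, is therefore no independent support for a difference. The gene model of CA9 overlaps that of ARHGEF39 on the opposite strand by 2011 bases, and reads of the pair cannot be told apart without strand, which the files do not show.

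CA2 (ENSG00000104267), the widely expressed cytosolic enzyme, was lower with siSRSF1-2, with a fold just under the threshold used. The blank libraries measured 5.87, 7.71 and 8.53 FPKM and the siSRSF1-2 libraries 3.56, 4.03 and 3.28 FPKM, so the groups did not overlap. The difference was -0.99 on the log2 scale (SE 0.158, adjusted p = 0.00822 in limma), where the threshold asked for more than 1. It came past the threshold without blank replicate 1 (-1.14), without siSRSF1-2 replicate 2 (-1.07) and in voom on the recovered reads (-1.02).

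With siSRSF1-3, CA2 was at 2.11, 4.82 and 5.91 FPKM, a spread that reached into the blank range. The difference from blank was -0.87 (SE 0.385, adjusted p = 0.183 in limma). With OE-LINC01134 it was at 5.97, 4.84 and 6.54 FPKM, a difference of -0.34 (SE 0.186, adjusted p = 0.290 in limma). The siRNA groups themselves differed by 0.12 (SE 0.378, adjusted p = 0.814 in limma), siSRSF1-3 minus siSRSF1-2, and this sign turned to -0.44 with all libraries set to a common FPKM sum.

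CA13 (ENSG00000185015), also cytosolic, was at its lowest with OE-LINC01134. It measured 2.64, 2.67 and 2.97 FPKM in blank cells and 1.77, 1.97 and 1.89 FPKM in the overexpressing cells, which lay below all 9 other libraries. The difference of -0.53 (SE 0.140) had an adjusted p = 0.0891 in limma and did not pass. The siSRSF1-2 libraries measured 2.58, 2.63 and 2.74 FPKM and the siSRSF1-3 libraries 2.42, 2.85 and 3.55 FPKM. Their differences from blank of -0.05 and 0.07 changed sign with a common FPKM sum (0.073 and -0.35).

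CA11 (ENSG00000063180), one of the proteins without catalytic activity, had the highest level of the family in these cells, at a mean of 17.6 FPKM over the 12 libraries. It measured 10.6, 17.5 and 17.4 FPKM in blank cells, 15.0, 16.3 and 16.1 with siSRSF1-2, and 14.8, 16.4 and 13.6 with OE-LINC01134. The siSRSF1-3 libraries spread from 35.8 over 23.0 to 15.1 FPKM, a difference from blank of 0.65 (SE 0.358, adjusted p = 0.255 in limma). The higher values went with a smaller library size in the authors' scaling, which was 0.712, 0.888 and 1.06 of the library's own read total in replicates 1, 2 and 3. The part of this scaling in the CA11 values was not tested. CA11 held 1458, 1215 and 979 reads in these replicates, of 27546958, 28642184 and 29396784 reads on genes, so the order of the replicates was the same before that scaling. A common FPKM sum took the difference between the siRNAs from 0.55 to -0.023. The sums it sets equal were 611084, 410612 and 302504 in the siSRSF1-3 replicates and between 281051 and 286019 with siSRSF1-2.

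CA5B (ENSG00000169239), the mitochondrial enzyme, stayed between 0.397 and 0.737 FPKM in all 12 libraries. Its mean of 0.574 FPKM was just inside the minimum of 0.5 FPKM for a test. The siSRSF1-2 libraries, at 0.650, 0.628 and 0.685 FPKM, lay above the blank libraries at 0.555, 0.516 and 0.492 FPKM, with a difference of 0.28 (SE 0.187, adjusted p = 0.309 in limma). The gene shares 14895 bases of its span with CA5BP1, a transcribed pseudogene on the same strand, so reads of the pair may have been split by the counting. CA5BP1 itself was at a mean of 3.22 FPKM and reached 6.52 and 4.64 FPKM in siSRSF1-3 replicates 1 and 2, against 2.53 FPKM in replicate 3 and 2.79, 1.99 and 2.39 FPKM in blank cells (0.82, SE 0.352, adjusted p = 0.177 in limma).

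CA8 (ENSG00000178538), the second protein without catalytic activity, was too low for the fit, at a mean of 0.207 FPKM. It held 32, 50 and 71 reads in blank cells, 41, 26 and 37 with siSRSF1-2, 27, 24 and 65 with siSRSF1-3, and 8, 31 and 4 with OE-LINC01134. The overexpressing libraries (0.0477, 0.196 and 0.0242 FPKM) were all below the blank libraries (0.200, 0.304 and 0.375 FPKM), with replicate 2 next to the lowest of them. The exact two-sided permutation test gave p = 0.1, the smallest that 3 against 3 libraries allow, and 0.2 and 0.7 for siSRSF1-2 and siSRSF1-3 against blank.

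Of the other family genes, CA3, a cytosolic enzyme best known from muscle, was the only protein coding one that could be tested, at 0.860, 0.731 and 1.06 FPKM in blank cells and 1.77, 1.67 and 1.19 FPKM with siSRSF1-3 (0.74, SE 0.276, adjusted p = 0.145 in limma). The pseudogene ENSG00000257639 ranged from 0.620 to 2.06 FPKM. CA7 held 7 to 26 reads per library, CA14 11 to 24, CA10 2 to 28 and CA1, the main carbonic anhydrase of red cells, 1 to 13. The pseudogene ENSG00000215838 had 0 to 18 reads. CA4, CA5A, CA6 and the pseudogenes ENSG00000273724 and ENSG00000241527 had fewer than 10 reads in every library, and 3 further pseudogenes had no read in any.

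Read as a family, 9 of the 23 genes could be tested, among them 6 of the 7 members, and 8 of these 9 were counted, with CA12 kept apart. In limma, 0 of the 8 passed the threshold with siSRSF1-2, where 4.95% of all tested genes did. The count was also 0 of 8 with siSRSF1-3, with 1.26% of all genes past it, 0 of 8 with OE-LINC01134, with 0.85% past it, and 0 of 8 between the siRNAs, with 0.0855% past it. At an unadjusted p under 0.05 the 8 genes gave 1, 2, 1 and 1 in the same order, where 40.3%, 28.8%, 26.3% and 42.1% of the 17538 tested genes did. With voom they gave 1 (CA2) with siSRSF1-2 and 0 in the other comparisons, where 5.6%, 3.35%, 1.98% and 0.627% of all genes passed. Without blank replicate 1 the 3 comparisons with blank gave 2 (CA9 and CA2), 1 (CA9) and 1 (CA9). CA9 was in the test only through its level in the other blank libraries, so its calls against blank in any fit are no support. CA5BP1 passed with siSRSF1-3 when replicate 3 of that siRNA was left out. For fits that leave out a library the share of all tested genes past the threshold is not given here.

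**Figure D2:**
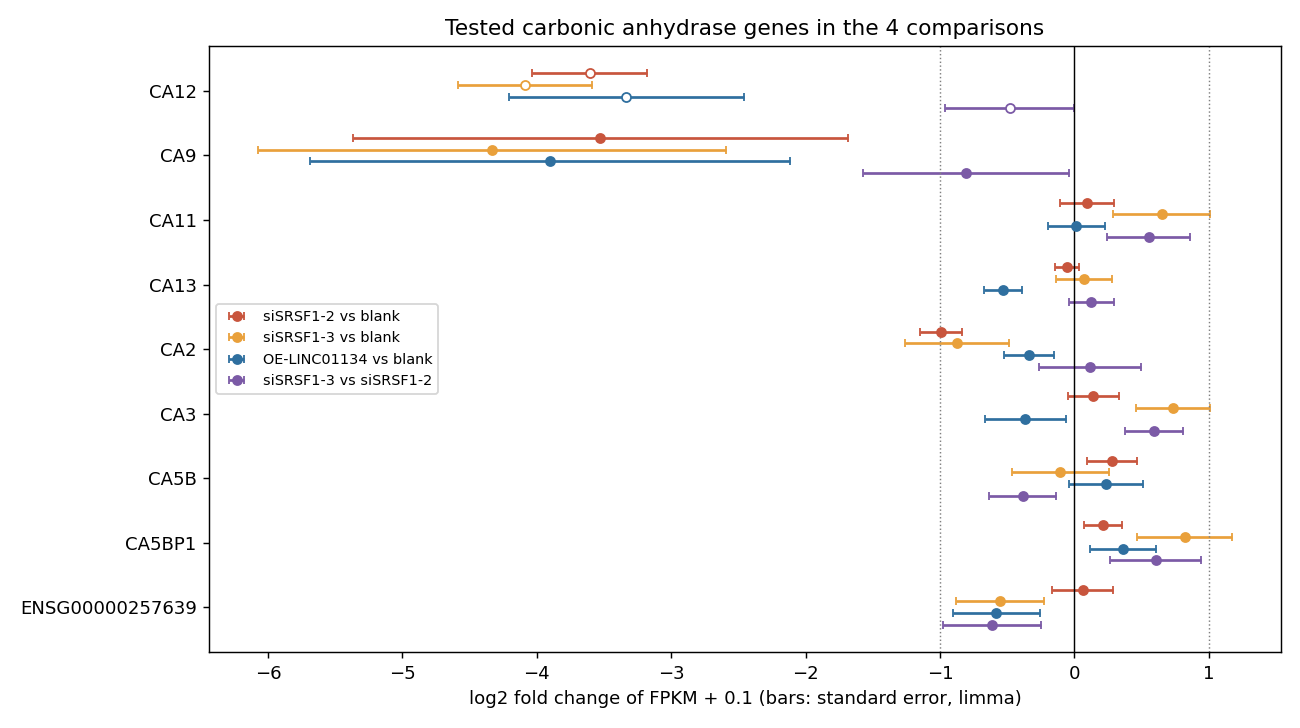
Log2 fold change (horizontal axis, FPKM + 0.1) with its standard error for the 9 tested carbonic anhydrase genes (vertical axis) in the 4 comparisons, with dotted lines at -1 and 1. The open symbols of CA12 lie at -3.61, -4.09, -3.33 and -0.48 and were not tested, the bars of CA9 are the widest (SE 1.84, 1.74 and 1.79 against blank), and the other 7 genes lie between -0.99 and 0.82.

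Over the 12 libraries the member most like CA12 was CA9, with a Pearson r of 0.83 on log2(FPKM + 0.1), followed by CA2 (0.59). The lowest was CA5BP1 among the tested family (-0.68). These are descriptions over libraries of 4 groups that share their treatment, not 12 independent points. Of all tested genes, the 5 with the highest r with CA12 were TGFBI, an extracellular matrix protein induced by TGF-beta (0.97), RASSF2 (0.97), NEFL, the light neurofilament subunit (0.97), LYPD6 (0.96) and PFKFB4, an enzyme that sets the level of a glycolytic activator (0.96).

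TGFBI, the gene with the highest r, serves as an example of the pattern by which these genes were picked. It was at 6.01, 12.2 and 12.02 FPKM in blank cells, 1.31, 4.97 and 1.45 FPKM with OE-LINC01134, and between 1.18 and 1.57 FPKM in all 6 siRNA libraries. NEFL likewise was at 3.25, 10.6 and 3.42 FPKM in the overexpressing libraries, with replicate 2 the high one. For CA9 the nearest genes were ANPEP, a membrane aminopeptidase (0.97), and TFPI2, a protease inhibitor (0.97), and ANPEP was at 0.0964, 3.65 and 3.53 FPKM in blank cells and at most 0.165 FPKM elsewhere. The nearest for CA2 were CHPT1 and TMEM267 (both 0.94), for CA11 RPL5P34 (0.97) and TADA3 (0.96), for CA13 SYTL2 (0.93) and GCNT1 (0.92), and for CA5B TSC22D2 and PRRC2C (both 0.97).

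Because CA12 and CA9 are known as genes of the response to low oxygen, a list of 33 other genes of that response was read beside them, of which 32 could be tested. With siSRSF1-2, 6 of the 32 fell past the threshold and 0 rose, where 2.73% of all tested genes fell and 2.22% rose past it. They were LDHA, which makes lactate from pyruvate (-2.05), DDIT4, an inhibitor of mTORC1 (-1.36), the glycolytic enzyme PGK1 (-1.20), the lipid droplet protein HILPDA (-1.19), the collagen hydroxylase subunit P4HA2 (-1.01) and PFKFB4 (-1.71), with adjusted p between 0.000925 and 0.0405 in limma. The median of the list was -0.74 against 0.02 over all tested genes. Of the 32, 26 were lower, against 8475 of all 17538 tested genes. In limma 22 of the 32 had an unadjusted p under 0.05, against 40.3% of all genes. The count was 15 without blank replicate 1 and 4 without blank replicate 2 or 3 or siSRSF1-2 replicate 2 or 3. The share of all tested genes past the threshold in these settings is not given here, so these counts cannot be read against it.

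LDHA had the largest fall with siSRSF1-2 of the list genes past the threshold, so its values do not stand for the list. Its highest library was blank replicate 1. It measured 216, 157 and 167 FPKM in blank cells and 44.0, 42.0 and 43.0 FPKM with siSRSF1-2. With siSRSF1-3 it measured 65.9, 69.9 and 57.3 FPKM, below all blank libraries but above siSRSF1-2. The overexpressing libraries were at 97.4, 160 and 95.1 FPKM, with replicate 2 inside the blank range.

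With siSRSF1-3, 1 of the 32 genes fell past the threshold, where 0.929% of all tested genes did. It was LDHA (-1.47, SE 0.223, adjusted p = 0.0453 in limma). In all, 29 were lower, against 8885 of all 17538 tested genes, with a median of -0.81 against -0.01. In limma 16 of the 32 had an unadjusted p under 0.05, against 28.8% of all genes. The LDHA call was lost without blank replicate 1, 2 or 3 or siSRSF1-3 replicate 1 or 2, with adjusted p between 0.0802 and 0.219. Without siSRSF1-3 replicate 3 the list gave 10 genes. With OE-LINC01134, 1 of the 32 fell past it, against 0.593% of all tested genes. It was AK4, a mitochondrial adenylate kinase (-1.04, SE 0.157, adjusted p = 0.0433 in limma). Here 29 of the list were lower, against 7917 of all 17538 tested genes, with a median of -0.37 against 0.05. In limma 14 of the 32 had an unadjusted p under 0.05, against 26.3% of all genes. The AK4 call was lost without blank replicate 2 or 3 or OE-LINC01134 replicate 1 or 3. The count was 9 without blank replicate 1 and 5 without OE-LINC01134 replicate 2. For these counts, too, the share of all tested genes is not given here. Between the siRNAs 0 of the 32 passed in limma and in voom, against 0.0855% and 0.627% of all genes, with 11 at an unadjusted p under 0.05, against 42.1% of all genes, and a median of -0.13. The nearest were AK4 (-0.52, adjusted p = 0.0749 in limma) and LDHA (0.58, adjusted p = 0.0759 in limma).

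The blank libraries were not alike in these genes. Relative to the mean of the 12 libraries, the median of the list was 0.14 in blank replicate 1 and 0.57 and 0.59 in replicates 2 and 3, on the log2 scale. In the siRNA libraries it was between -0.41 and -0.11, and in the overexpressing libraries between -0.06 and 0.03. Blank replicates 2 and 3 were the 2 highest of the 12 libraries for 19 of the 32 genes (59.4%), against 969 of all 17538 tested genes (5.53%). NDRG1, a gene widely used as a marker of low oxygen, was at 12.3, 68.7 and 68.9 FPKM in blank cells. It was between 8.05 and 22.6 FPKM in all other libraries, so, as for CA9, blank replicate 1 was not among the high libraries. NDRG1 was picked after its values were seen, and it did not pass with siSRSF1-2 (-0.87, SE 0.670, adjusted p = 0.376 in limma). Other list genes did not follow it. GAPDH, LDHA and PFKFB3 were highest in blank replicate 1, and VEGFA was highest in siSRSF1-3 replicate 3.

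The median r of the 32 genes with CA12 over the libraries was 0.60, against -0.03 over all tested genes, and the r of SRSF1 with CA12 was 0.49. These r are descriptions that rest on the CA12 values by which the set was chosen. Whether the oxygen supply or the density of the cultures differed between libraries is not given in the labels and was not tested.

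**Figure D3:**
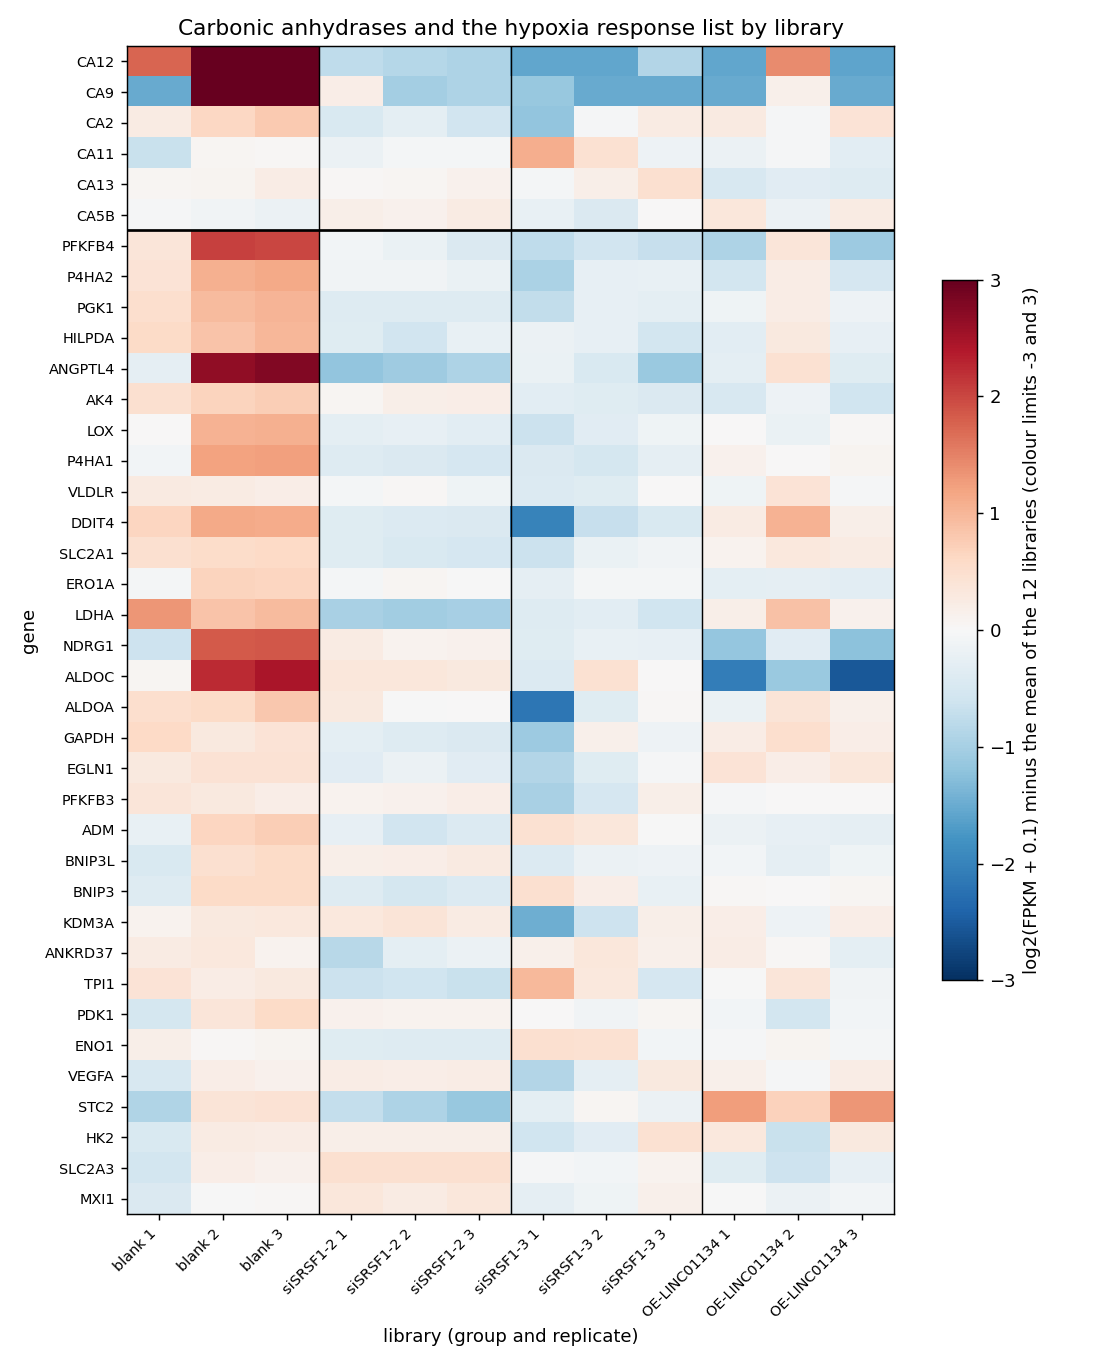
Difference of log2(FPKM + 0.1) from the mean of the 12 libraries (colour, red higher, limited to -3 and 3) for the 6 tested members, above the line, and the 32 tested genes of the low-oxygen response, below it, ordered by their r with CA12, in the 12 libraries (columns). Blank replicates 2 and 3 are red in most rows, with a median over the list of 0.57 and 0.59, whereas blank replicate 1 is at 0.14 and CA9 is at 0 FPKM in it.

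Genes of the oxygen sensing machinery were read in the same way. HIF1A, the oxygen-regulated subunit of the transcription factor HIF-1, was at 43.0, 36.4 and 38.3 FPKM in blank cells and 25.3, 24.5 and 24.5 FPKM with siSRSF1-2 (-0.66, SE 0.0756, adjusted p = 0.00339 in limma, under the fold threshold). With siSRSF1-3 it was at 20.5, 19.3 and 30.3 FPKM (-0.77, SE 0.225, adjusted p = 0.102 in limma). With OE-LINC01134 it was at 72.2, 44.1 and 72.8 FPKM (0.65, SE 0.209, adjusted p = 0.122 in limma). Its 2 highest libraries, replicates 1 and 3, held CA12 at 0.0849 and 0.0813 FPKM. These are RNA levels, which do not give the amount of HIF1A protein, and the part of HIF-1 in the CA12 values was not tested.

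EPAS1, the HIF-2 subunit, differed from blank by 0.52, -0.60 and 0.28 with siSRSF1-2, siSRSF1-3 and OE-LINC01134 (adjusted p between 0.167 and 0.509 in limma). ARNT, the constant partner of both, was higher by 0.44 with siSRSF1-2 (SE 0.0676, adjusted p = 0.00732 in limma), again under the fold threshold. VHL, which marks the HIF subunits for degradation, differed by 0.25, 0.42 and -0.06 (adjusted p between 0.255 and 0.859 in limma). EGLN1 was lower by 0.67 with siSRSF1-2 (adjusted p = 0.00395 in limma) and by 0.81 with siSRSF1-3 (adjusted p = 0.104). Of the 9 tested genes of the sensing list, 7 were higher and 2 lower with siSRSF1-2, and 4 higher and 5 lower with siSRSF1-3. Between the siRNAs the nearest were HIF1AN (-0.44) and EPAS1 (-1.12), both at adjusted p = 0.0801 in limma. Of the 9 tested genes of the sensing list the 1 that passed in any comparison was HIF3A with OE-LINC01134, at 3.11, 2.40 and 3.08 FPKM against 0.630, 0.252 and 0.161 FPKM in blank cells (2.86, SE 0.396, adjusted p = 0.0402 in limma), where 0.85% of all tested genes passed, and the call was lost without blank replicate 2 or 3 or OE-LINC01134 replicate 1 or 3 (adjusted p between 0.177 and 0.209). ESR1, the estrogen receptor that is known to drive CA12 in breast cells, was at most 0.0855 FPKM in any library.

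Carbonic anhydrases work beside transporters of bicarbonate, protons and lactate, and of a list of 32 such genes 18 could be tested. With siSRSF1-2, 2 of the 18 rose past the threshold and 1 fell, where 2.22% of all tested genes rose and 2.73% fell past it. SLC16A8, a lactate transporter, was at 1.67, 2.30 and 1.78 FPKM in blank cells and 6.16, 6.79 and 6.16 FPKM with siSRSF1-2 (1.69, adjusted p = 0.00134 in limma). SLC9A3, a sodium-proton exchanger, rose by 1.62 (adjusted p = 0.00213), and AQP1, a water channel, fell by 1.62 (adjusted p = 0.00904).

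With siSRSF1-3, SLC16A8 was at 0.440, 1.32 and 6.30 FPKM, so replicate 3 was at the siSRSF1-2 level and the other replicates were below all blank libraries. In limma 0 of the 18 passed with siSRSF1-3, OE-LINC01134 and between the siRNAs, where 1.26%, 0.85% and 0.0855% of all tested genes did. At an unadjusted p under 0.05 they gave 6, 9 and 8, against 28.8%, 26.3% and 42.1% of all genes, and in voom 2, 1 and 0, against 3.35%, 1.98% and 0.627%. The nearest with siSRSF1-3 were the anion exchanger SLC26A6 (-1.10, adjusted p = 0.0505) and AQP1 (-1.37, adjusted p = 0.0518). With OE-LINC01134 they were EMB, a partner of lactate transporters (-0.70, adjusted p = 0.0568), and SLC16A3, the main exporter of lactate (-1.20, adjusted p = 0.0793), and between the siRNAs SLC9A3 (-1.98, adjusted p = 0.0725) and SLC4A7, a sodium-bicarbonate cotransporter (-0.87, adjusted p = 0.0808). The medians of the list were -0.07, -0.17, -0.04 and -0.11 in the 4 comparisons.

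The 4 osteoclast markers, read because CA2 is known from those cells, summed to between 12.4 and 46.3 FPKM in blank cells, 57.4 and 63.1 with siSRSF1-2, 85.4 and 152 with siSRSF1-3, and 64.2 and 68.9 with OE-LINC01134. Most of each sum came from OSCAR, an immune-type receptor of osteoclasts, at 9.06, 33.7 and 30.9 FPKM in blank cells and 49.4 to 138 FPKM in all other libraries (1.27, 2.26 and 1.61 with siSRSF1-2, siSRSF1-3 and OE-LINC01134, adjusted p between 0.0763 and 0.111 in limma). ATP6V0D2, a proton pump subunit, was between 1.49 and 11.4 FPKM in blank cells and at most 0.827 FPKM with OE-LINC01134 (-2.94, adjusted p = 0.0855 in limma). The protease CTSK was at most 1.40 FPKM and the phosphatase ACP5 at most 1.47 FPKM in any library. The part of these markers in the CA2 values was not tested.

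The genes beside CA12 did not show differences of its size. Since CA12 was chosen for its large fall, smaller differences beside it follow from that choice, and the values are a description. Whether the region had a part in the CA12 values was not tested. The nearest tested genes on either side were APH1B, a gamma-secretase subunit, at 12.3 kb (0.46, 0.60 and -0.06 with siSRSF1-2, siSRSF1-3 and OE-LINC01134), and USP3, a deubiquitinase, at 122 kb (-0.04, -0.64 and -0.01). RAB8B, a small GTPase of membrane traffic, differed by 0.31, -0.69 and -0.10, RPS27L by -0.39, 0.75 and 0.07, the ubiquitin ligase HERC1 by 0.72, -0.44 and 0.52, and CIAO2A by -0.24, -0.0015 and 0.032. Of the 16 tested genes within 1 Mb, 1 passed with siSRSF1-2 (ENSG00000166803, -1.14) and 1 with siSRSF1-3 (TPM1, a tropomyosin, -1.71), against 4.95% and 1.26% of all tested genes. Both are named because they passed. With OE-LINC01134 0 passed in limma, against 0.85%, and the values lay between -0.55 and 0.52. At an unadjusted p under 0.05 in limma the 16 gave 9, 5 and 0 in the same order, against 40.3%, 28.8% and 26.3% of all genes.

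**Figure D4:**
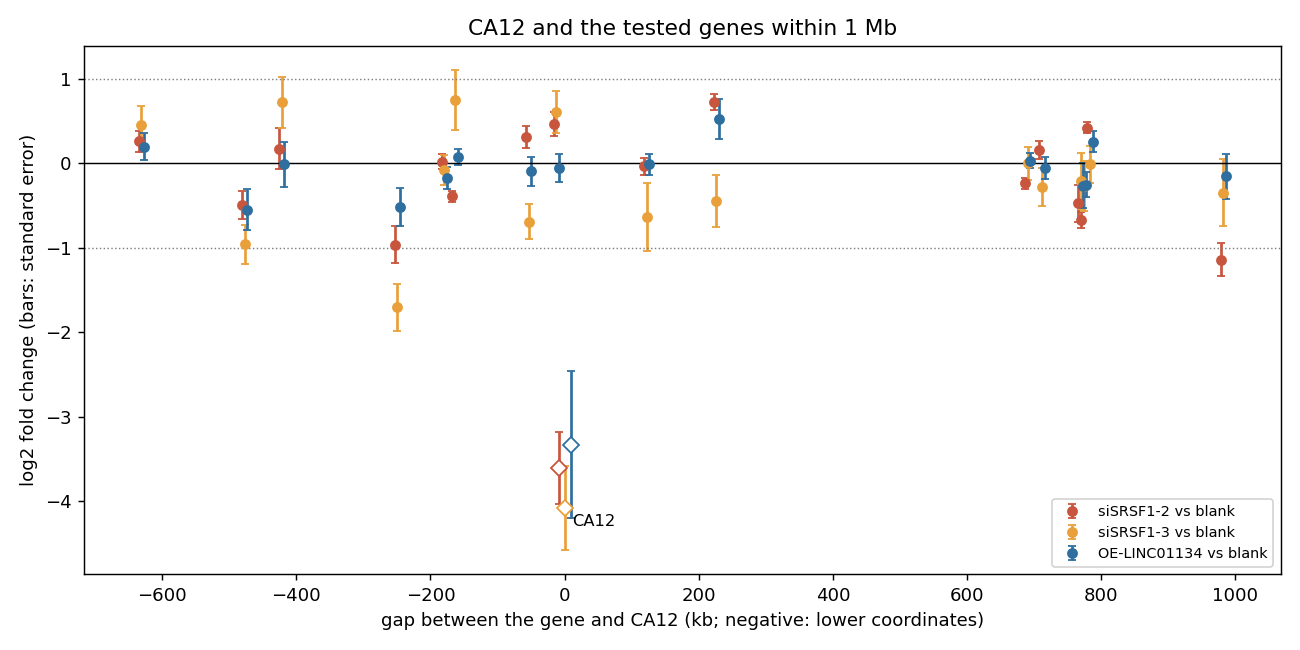
Log2 fold change against blank (vertical axis, with standard error) of CA12 (open diamonds) and the 16 tested genes within 1 Mb by their gap to CA12 (horizontal axis, kb), in 3 comparisons drawn slightly side by side, with dotted lines at -1 and 1. CA12, chosen by its fall with both siRNAs, lies at -3.61, -4.09 and -3.33, and the lowest other gene, TPM1, at -1.71.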

How the data were processed

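The authors deposited one FPKM value per gene and library for 12 RNA-Seq libraries, with gene lengths and coordinates. The aligner and the human build are not given in the sources used here (the labels list GRCm38 and mm10), and the authors compared groups with DESeq2. Labels and supplementary methods name different library kits. Multiplied by gene length, 100.0% of values came out as whole reads (within 0.1 reads) of 1 step per library, which gave reads per gene. The deposited values carry size factors, 0.712 to 1.09 of each library's own total. The supplementary methods speak of 2 biological replicates in each condition while the labels give 3 libraries, and neither says that these 3 were separate cultures, so p-values measure the spread between these libraries. Genes with a mean of at least 0.5 FPKM (17538 of 58735) were fitted as log2(FPKM + 0.1) with limma 3.58.1 in R 4.3.3 (lmFit, eBayes with trend), 3 + 3 libraries per comparison, two-sided, with Benjamini-Hochberg adjustment. The fit was also run on simulated data with the same spread in every library and no outlying library. These libraries differ from that, so the simulation does not test the fit for them. Alternatives were a pseudocount of 1, no filter, a common FPKM sum, 1 fit over 4 groups, a replicate block, and leaving out each library in turn, and, added after seeing the data, own read totals, voom and blank replicate 1 as the sole blank. Members and lists (low-oxygen response and sensing, acid-base transport, cell markers) were chosen with earlier results of these data known. Named were all members, list genes past the threshold with the 5 smallest adjusted p (otherwise the 2 smallest), the oxygen sensors, ESR1, the 3 nearest tested genes on each side of CA12 and the genes with the highest r. PFKFB4, NDRG1, TPM1 and ENSG00000166803 were also described after their values were seen. Symbols were matched through full gene names, and no sequence is shown because no human reference was used here.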

Additional observations from a re-analysis of the deposited data

How the results depend on the processing

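CA12 was chosen by its fall with both siRNAs in these libraries, so its keeping that direction in every alternative is no support. The comparison with OE-LINC01134 used the same blank libraries. As a description, the log2 fold change of CA12 ranged from -4.15 to -1.96 (siSRSF1-2), -4.90 to -2.06 (siSRSF1-3), -4.33 to -1.74 (OE-LINC01134) and -0.76 to -0.10 (siSRSF1-3 minus siSRSF1-2), with the smallest differences at a pseudocount of 1. Of 839 single-gene values, 745 kept direction and side of the threshold, 41 lost and 22 gained a call, 24 changed sign and 7 (CA12, not tested) moved by more than the replicate spread. The causes were not tested.

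Signs changed as follows. With blank replicate 1 as the sole blank library, CA9 became 0.93, 0.13 and 0.56 (siSRSF1-2, siSRSF1-3, OE-LINC01134), and with siSRSF1-2 CA5BP1 became -0.0142 and CA13 0.00468. With FPKM rescaled to a common sum, CA13 became 0.0729, -0.35 and -0.42 (siSRSF1-2, siSRSF1-3, between siRNAs), and between siRNAs CA11 became -0.0226, CA2 -0.44 and LDHA -0.000621. With each library's own read total, CA13 became -0.18 (siSRSF1-3) and -0.16 (between siRNAs) and CA2 -0.17 (between siRNAs). Leaving out single libraries moved CA11 between -0.14 and 0.22 (siSRSF1-2, negative without blank replicate 1) and between -0.22 and 0.14 (OE-LINC01134, negative without blank replicate 1 or OE-LINC01134 replicate 2), ENSG00000257639 between -0.10 and 0.31 (siSRSF1-2, negative without its replicate 1 or 3), CA5B between -0.22 and 0.0042 (siSRSF1-3, positive without its replicate 2), CA13 between -0.068 and 0.20 (siSRSF1-3) and between -0.0131 and 0.25 (between siRNAs), both negative without siSRSF1-3 replicate 3, and CA2 between -0.17 and 0.55 (between siRNAs, negative without siSRSF1-3 replicate 2 or 3).

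Counts past the threshold moved as follows. The share of all tested genes is given only for the main fit and voom, so the other counts cannot be read against it. Leaving out single libraries gave 0 to 2 carbonic anhydrases with siSRSF1-2 and 0 to 1 with siSRSF1-3 and OE-LINC01134, 4 to 15 genes of the low-oxygen list with siSRSF1-2, 0 to 10 with siSRSF1-3, 0 to 9 with OE-LINC01134 and 0 to 2 between siRNAs, and 0 to 1, 0 to 2 and 0 to 4 of the acid-base list with siSRSF1-3, with OE-LINC01134 and between siRNAs. One fit over all 4 groups gave 1 carbonic anhydrase (CA9, siSRSF1-3), 2, 3 and 2 acid-base genes (siSRSF1-3, OE-LINC01134, between siRNAs) and 10 and 4 low-oxygen genes (siSRSF1-3, OE-LINC01134). Voom gave 1 carbonic anhydrase (siSRSF1-2), 2 and 1 acid-base genes and 6 low-oxygen genes (siSRSF1-3). Without the filter the acid-base count with siSRSF1-2 was 5, as it was with blank replicate 1 as the sole blank. The low-oxygen count was 0 with siSRSF1-3 and OE-LINC01134 without the filter, with rescaled sums and with blank replicate 1 alone, and 0 with OE-LINC01134 at a pseudocount of 1.

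Replicate numbers did not pair the libraries: deviations of same-numbered libraries correlated between -0.0815 and 0.0420. With the replicate block the low-oxygen count was 5 with siSRSF1-2 and 0 with siSRSF1-3 and OE-LINC01134, and the carbonic anhydrase counts stayed at 0. Depth limits CA9, CA8 and CA12 outside blank cells, which rest on 0 to 71 reads in most libraries.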
